A study of Mus musculus with 23 samples.

Results

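The cadherin and catenin transcripts of Basp1-reporter colon tumours are described here as 9 genes, 5 cadherins (Cdh1, Cdh2, Cdh11, Cdh13 and Cdh17) and 4 catenins (Ctnnb1, Ctnna1, Ctnnd1 and Jup), of the 54354 gene identifiers in the deposited count table. The genes were listed by name. Cdh13, which encodes T-cadherin, was chosen by its higher level in the GFP-positive libraries of these same data. Its values are therefore given as a description, and nothing is read from its calls in the fits. The cells came from organoids (cultured tumour epithelium) named Basp1-eGFP-DTR; AKP-tdT, which were placed in the mouse colon. The resulting primary tumours were sorted by the GFP of the Basp1 reporter into 11 GFP-positive and 12 GFP-negative libraries of bulk RNA. Both populations have the genotype label Basp1-GFP. Organoid-derived cells in either carried every allele of the organoids, including the diphtheria toxin receptor of the reporter and the tdTomato label. The sorted GFP is what the labels set apart. The labels do not spell out the letters AKP, give no age or sex of the mice and do not say whether tumours were pooled. HFD stands in the series title, while diets are not stated per library. GFP-positive 7, GFP-positive 8 and GFP-negative 9 have names with an unexplained ending (-2), and libraries could share animals. RNA is said to come from organoids in the extraction text but from digested tumours in the design text.

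Classical cadherins hold neighbouring cells together through their extracellular domains, and their cytoplasmic tails bind p120-catenin near the membrane and β-catenin or plakoglobin further along. β-Catenin in turn binds α-catenin, which links the junction to actin, and the β-catenin that is not held at junctions drives Wnt target genes, which makes the balance of these proteins of interest in intestinal tumours. T-cadherin differs from the rest in having no transmembrane or cytoplasmic part: it is held by a GPI anchor, does not bind catenins, and is known as a receptor for adiponectin and low-density lipoprotein.

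Depth was low and uneven. Total counts ran between 37125 and 4238877 in GFP-positive libraries (median 1418140) and between 25458 and 2304316 in GFP-negative libraries (median 144334). 1 GFP-positive and 3 GFP-negative libraries held fewer than 100000 counts. By their numbers the libraries form 2 runs that may be batches: set 1 of 5 GFP-positive and 6 GFP-negative libraries, and set 2 of 6 and 6. The library names also start with identifiers. GFP-positive 4 has a joined name made of those of GFP-negative 4 and GFP-negative 5, so these 3 libraries were treated as 1 identifier, and both GFP-negative libraries were averaged. Without this identifier, Cdh13 and Ctnna1 were each higher in the GFP-positive library in 8 of 9, in place of the 9 of 10 given further on. Counted so there are 11 identifiers, 10 of which have both populations. Identifier 61-1 has 2 GFP-positive libraries, which were averaged too. Levels are given as CPM, a gene's counts per 1000000 counts of the library. Basp1 itself averaged 57.8 ± 32.9 CPM in the 11 GFP-positive and 33.4 ± 27.0 CPM in the 12 GFP-negative libraries (SD). 12 epithelial markers, Cdh1 not among them, all had counts in both groups and summed to 2697 to 7079 CPM in GFP-positive and 2547 to 7502 CPM in GFP-negative libraries. Both groups therefore held epithelial RNA. Non-epithelial RNA was also present. 12 macrophage markers summed to 147 to 861 CPM in GFP-positive libraries of set 2 and 2412 to 6575 CPM in GFP-negative libraries of set 2. In set 1 the sum reached 32172 CPM in GFP-positive 3, against at most 6974 CPM in any other library of either group. In such bulk samples, fewer cells of a type and less RNA per cell cannot be told apart.

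The levels of the 9 genes spanned a wide range. Expressed per kilobase of the principal transcript, so that genes can be compared, the order over the 19 libraries of at least 100000 counts was led by Ctnna1 (α-catenin, median 165 CPM per kilobase), which lay above the next gene in 19 of 19 libraries. Cdh13 (74.4), Ctnnb1 (β-catenin, 71.5) and Cdh1 (E-cadherin, the main cadherin of epithelium, 61.9 CPM per kilobase) came next. Cdh13 lay above Ctnnb1 in 10 of 19 libraries and Ctnnb1 above Cdh1 in 14 of 19, so the order within these 3 genes was not settled by library. Jup (plakoglobin, the catenin shared with desmosomes) followed at 33.8 CPM per kilobase. Ctnnd1 (p120-catenin) was at 17.3 and Cdh17 (liver-intestine cadherin) at 12.7 CPM per kilobase, with Ctnnd1 above Cdh17 in 9 of 19 libraries. Cdh11 (OB-cadherin, a cadherin of mesenchymal cells) had a median of 0.499 and Cdh2 (N-cadherin) of 0.0529 CPM per kilobase. The medians of Cdh13, Ctnnb1 and Cdh1 are also given by population. Nothing is read from the place of Cdh13 among them, since it was chosen by its level here. Cdh13 had a median of 108 CPM per kilobase in GFP-positive libraries, beside 70.6 for Ctnnb1 and 68.6 for Cdh1. In GFP-negative libraries the median of Cdh13 was 54.4 CPM per kilobase, beside 76.5 for Ctnnb1 and 55.0 for Cdh1. Both mesenchymal cadherins had few or no counts in most libraries.

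**Figure D1:**
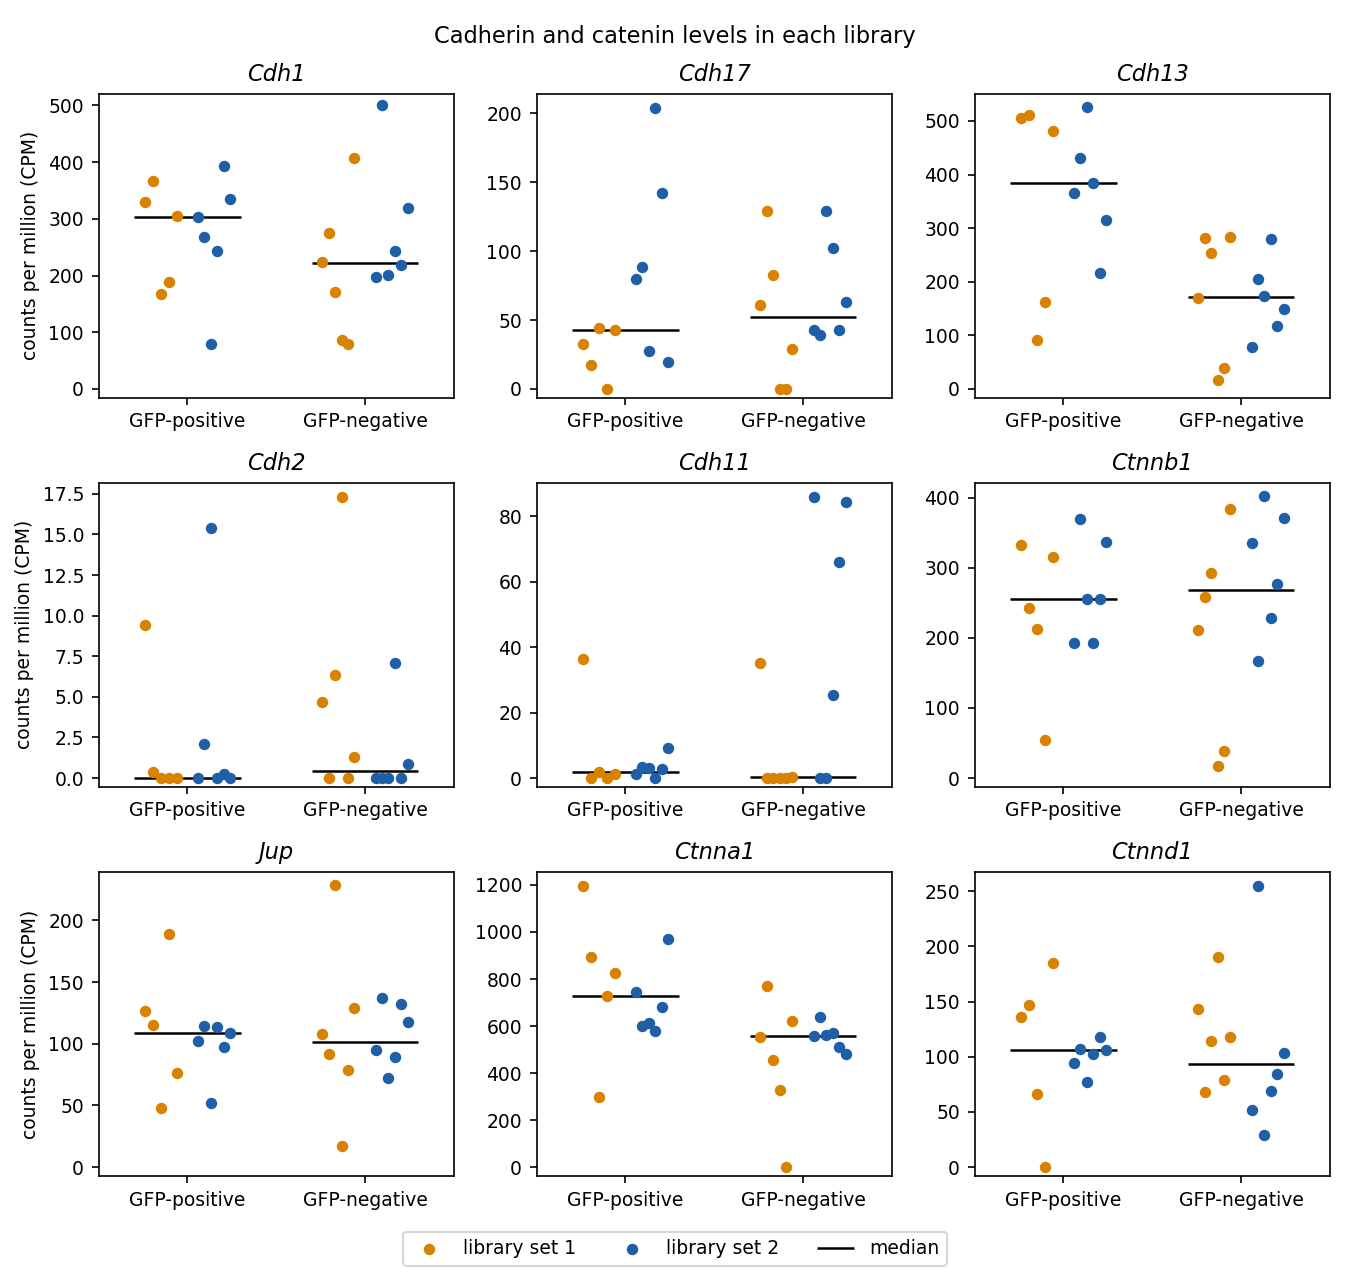
Level of each gene in each library (CPM on the y axis, a scale of its own in each panel) for GFP-positive and GFP-negative libraries. Points are libraries, coloured by library set, and lines are group medians over both sets. In the Cdh13 panel 8 of 11 GFP-positive libraries lie above all 12 GFP-negative libraries, whereas in the Cdh1, Ctnnb1, Jup and Ctnnd1 panels no GFP-positive library does.

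E-cadherin did not pass the test between the populations. Cdh1 (chromosome 8, 106603351 to 106670246, plus strand, mm10) lay between 79.9 and 394 CPM in GFP-positive libraries, with a median of 302 CPM. GFP-negative libraries lay between 78.6 and 500 CPM, with a median of 221 CPM. The ranges overlap almost whole. The fitted log2 fold change was 0.13 (SE 0.23, 95% interval -0.33 to 0.60, edgeR quasi-likelihood adjusted p = 0.997). Cdh1 was higher in the GFP-positive library of 7 of 10 identifiers. The exceptions were the identifiers of GFP-positive 3, GFP-positive 6 and GFP-positive 10. GFP-positive 6 had the lowest Cdh1 of its group, 79.9 CPM from 26 counts, against 244 CPM in GFP-negative 7 of the same identifier.

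Cdh17 encodes a cadherin of intestinal epithelium with a short tail that does not bind catenins. The gene lies on chromosome 4, 11758147 to 11817895, plus strand (mm10). It was at 0 to 204 CPM in GFP-positive libraries (median 42.5) and at 0 to 129 CPM in GFP-negative libraries (median 52.1). The highest value, 204 CPM, was in GFP-positive 7 and the next, 142 CPM, in GFP-positive 8, and no GFP-negative library reached either. The 3 libraries at 0 counts, GFP-positive 4, GFP-negative 4 and GFP-negative 5, were those of fewest reads, in which 3 counts would already be 80.8, 52.0 and 118 CPM. Fitted over all libraries, Cdh17 differed by a log2 fold change of 0.14 (SE 0.45, edgeR adjusted p = 0.997). Its fitted value was 0.51 (SE 0.49) in set 2 and -0.80 (SE 0.55) in set 1. The difference between the sets, 1.27 on the log2 scale (SE 0.78), did not pass the edgeR test of the interaction (adjusted p = 0.799).

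Cdh13 was the gene with the clearest separation, which is why it was chosen. The gene lies on chromosome 8, 118283733 to 119324921, plus strand (mm10). GFP-positive libraries had 92.1 to 525.8 CPM, with a median of 385 CPM (363 ± 150, SD, n = 11). GFP-negative libraries had 17.3 to 284 CPM, with a median of 171 CPM (171 ± 94.4, SD, n = 12). The lowest values, 17.3 CPM in GFP-negative 4 and 39.3 CPM in GFP-negative 5, were 1 count each. 8 of 11 GFP-positive libraries lay above every GFP-negative library. The other 3 were GFP-positive 3 (92.1 CPM), GFP-positive 4 (162 CPM from 6 counts) and GFP-positive 8 (217 CPM). GFP-positive 3 is the library with the macrophage transcripts, and its epithelial markers summed to 3031 CPM. The fitted log2 fold change was 1.04 (SE 0.29) over all libraries.

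In library set 2, Cdh13 was at 525.8 CPM in GFP-positive 6, 385 in GFP-positive 7, 217 in GFP-positive 8, 316 in GFP-positive 9, 366 in GFP-positive 10 and 431 CPM in GFP-positive 11. It was at 280 CPM in GFP-negative 7, 118 in GFP-negative 8, 149 in GFP-negative 9, 77.4 in GFP-negative 10, 206 in GFP-negative 11 and 172 CPM in GFP-negative 12. The values of GFP-negative 10, GFP-negative 11 and GFP-negative 12 rest on 9, 21 and 12 counts. GFP-positive 8 was the sole GFP-positive library of the set that fell within the GFP-negative range. The fitted log2 fold change was 1.16 (SE 0.28), and the spread between libraries was smaller there than in set 1, where it was 0.88 (SE 0.50). In set 1, Cdh13 reached 481 to 511 CPM in GFP-positive 1, GFP-positive 2 and GFP-positive 5, above the 284 CPM of the highest GFP-negative library of that set. The fitted change differed between the sets by 0.26 on the log2 scale (SE 0.59).

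Within identifiers, Cdh13 was higher in the GFP-positive library in 9 of 10, with a mean log2 difference of 1.07 ± 1.13 (SD, n = 10 identifiers). In set 2 alone it was higher in 6 of 6, by 1.21 ± 0.56 (SD). The exception was the identifier of GFP-positive 3, at 92.1 CPM in that library and 284 CPM in GFP-negative 6. The macrophage markers of these libraries summed to 32172 CPM in GFP-positive 3 and 424 CPM in GFP-negative 6, and their epithelial markers to 3031 CPM in GFP-positive 3 and 7502 CPM in GFP-negative 6. In set 2 as a whole, the epithelial markers summed to 2697 to 6849 CPM in GFP-positive libraries (median 5763) and 2547 to 4571 CPM in GFP-negative libraries (median 4292). The part of these cell-type differences in the Cdh13 values was not tested.

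**Figure D2:**
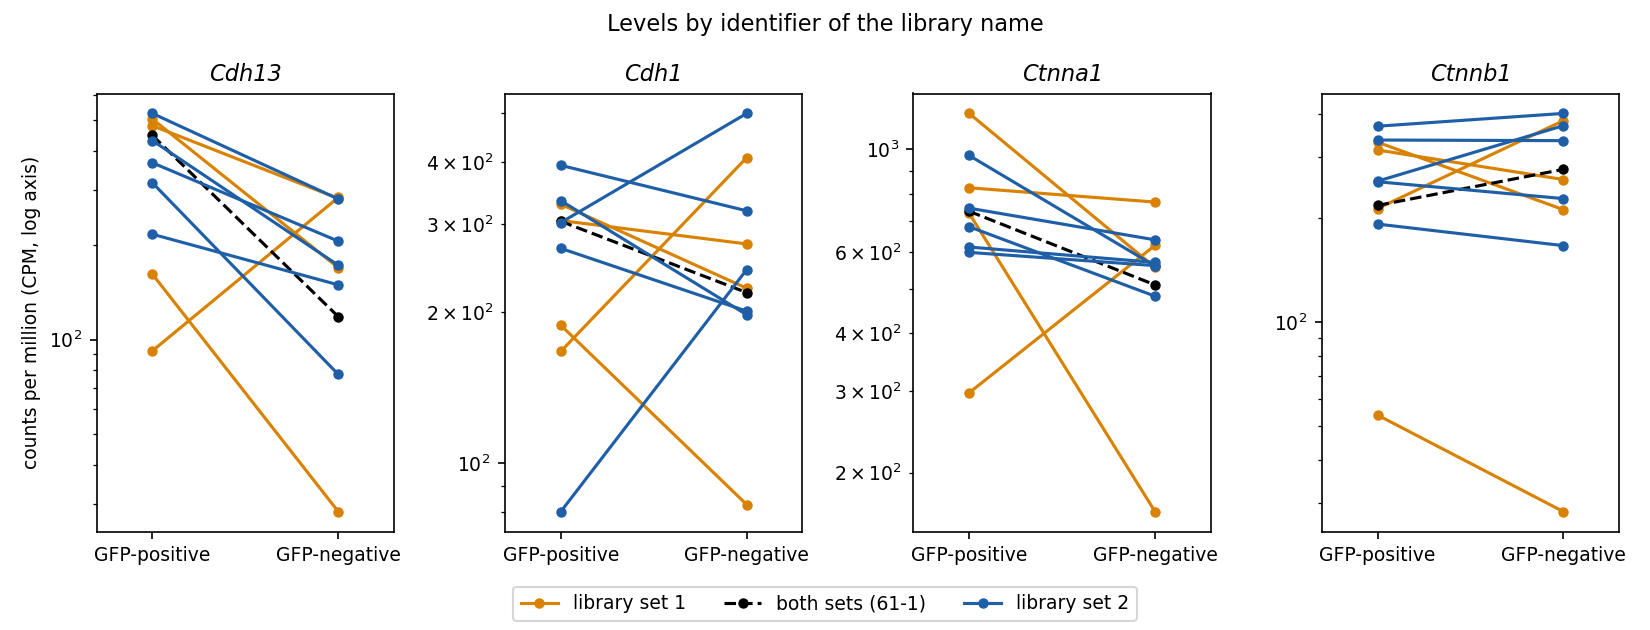
CPM values (log axis, own scale in each panel) of Cdh13, Cdh1, Ctnna1 and Ctnnb1 in the GFP-positive and GFP-negative libraries of each of 10 identifiers, joined by a line and coloured by library set. The dashed line is an identifier with libraries in both sets, drawn at its mean. 9 of 10 lines are higher on the GFP-positive side for Cdh13 and for Ctnna1, and 7 and 6 of 10 for Cdh1 and Ctnnb1.

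The ratio of T-cadherin to E-cadherin transcript, each per length of its transcript, describes the cadherin mix of a library without reference to its total. In libraries of at least 100000 counts the ratio was 0.644 to 7.70 in GFP-positive libraries (median 1.71, n = 10) and 0.458 to 1.73 in GFP-negative libraries (median 0.814, n = 9). Cdh13 exceeded Cdh1 in 8 of 10 GFP-positive and 3 of 9 GFP-negative libraries. 5 GFP-positive libraries lay above every GFP-negative library. The value of 7.70 belongs to GFP-positive 6, where Cdh13 had the highest and Cdh1 the lowest level of the GFP-positive libraries. No test was made of this ratio because Cdh13 was chosen for its level in these libraries.

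**Figure D3:**
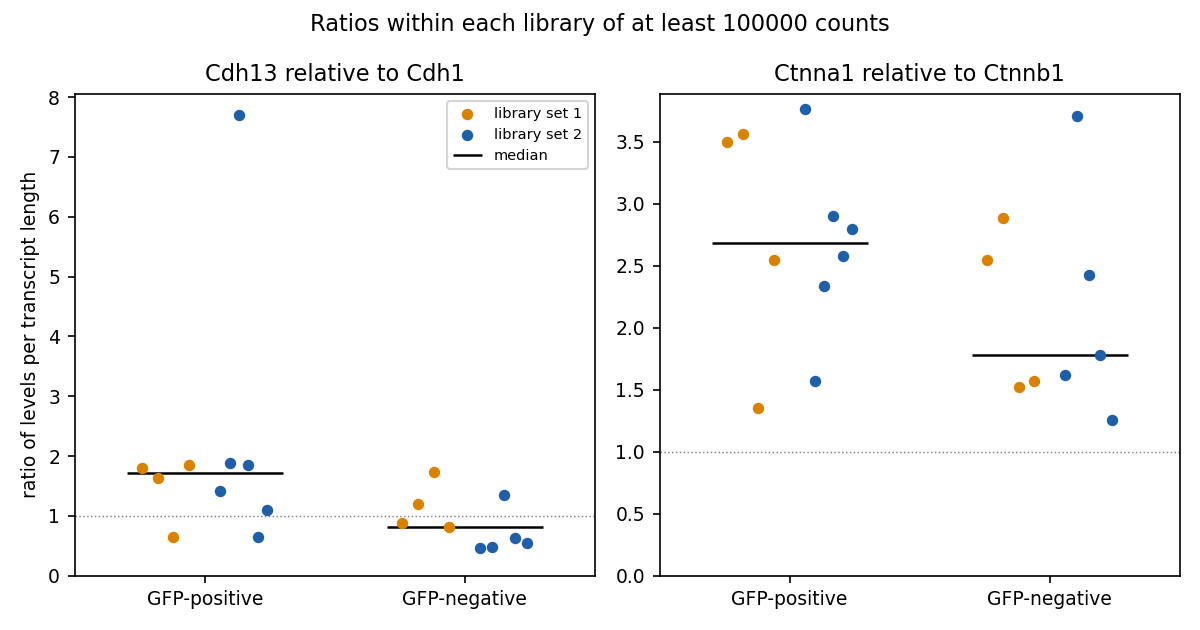
Ratios of transcript levels per length in each library of at least 100000 counts, Cdh13 relative to Cdh1 and Ctnna1 relative to Ctnnb1, for GFP-positive and GFP-negative libraries. Points are libraries coloured by library set, solid lines are medians and the dotted line marks equal levels. The Cdh13 to Cdh1 ratio has medians of 1.71 and 0.814, and the Ctnna1 to Ctnnb1 ratio lies above 1 in all libraries shown.

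Cdh11 gave the other sizeable difference, in the opposite direction and with few counts. The gene lies on chromosome 8, 102632095 to 102785642, minus strand (mm10), and was below the count filter, so it is reported from a fit without that filter. In set 2, GFP-positive libraries held 27 counts of Cdh11 in all and ran from 0 to 9.33 CPM. GFP-negative libraries of set 2 held 180 counts and were at 25.5, 66.1, 84.5, 86.1, 0 and 0 CPM in GFP-negative 7 to GFP-negative 12. 4 of 6 GFP-negative libraries thus lay above every GFP-positive library. The 2 without a count, GFP-negative 11 and GFP-negative 12, held 101996 and 69580 counts in total, and 3 counts would be 29.4 CPM in GFP-negative 11. Cdh11 fell in GFP-positive libraries of set 2, with a log2 fold change of -3.72 (SE 0.65) and an adjusted p of 2.81e-06 by edgeR. In that fit 1.8% of all genes passed in either direction and 1.67% were lower. Leaving out each library of the set in turn gave log2 fold changes of -4.20 to -3.38, each past the threshold.

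Fibroblast transcripts were also lower in GFP-positive libraries of set 2. All 10 fibroblast markers had counts in both groups of set 2, none was at 0, and they summed to 167 to 981 CPM in GFP-positive and 1135 to 8752 CPM in GFP-negative libraries, with no overlap. GFP-negative 9 and GFP-negative 10, with the largest Cdh11 levels, also had the largest fibroblast sums, 8752 and 7056 CPM. The sums did not follow Cdh11 in every library. GFP-negative 11, with no Cdh11 count, had 3177 CPM, against 2772 CPM in GFP-negative 7 and 3156 CPM in GFP-negative 8. In set 1, 154 of the 159 GFP-positive counts of Cdh11 were in GFP-positive 1 and 15 of the 16 GFP-negative counts in GFP-negative 1, at 36.3 and 35.3 CPM. These 2 libraries share an identifier, and their fibroblast sums, 2114 CPM in GFP-positive 1 and 2415 CPM in GFP-negative 1, were the highest of their groups in set 1. No fold change is given for set 1, where most libraries held no count. The part of fibroblast RNA in the Cdh11 result was not tested.

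Over all libraries Cdh11 had 186 counts in the 11 GFP-positive libraries (5.40 ± 10.6 CPM, SD) and 196 counts in the 12 GFP-negative libraries (24.8 ± 34.9 CPM, SD). The fitted log2 fold change was -2.18 (SE 0.88) and did not pass (edgeR adjusted p = 0.309, where 0.00419% of all genes passed). The difference between the sets, -3.94 on the log2 scale (SE 1.71), did not pass either (adjusted p = 0.481). It rested on the libraries of 1 identifier: it was -0.85 without GFP-positive 1 and -8.14, past the threshold (edgeR adjusted p = 0.0482), without GFP-negative 1. Within identifiers, Cdh11 was higher in the GFP-positive library in 5 of 10, lower in 4 and equal in 1. In set 2 it was lower in 4 of 6 and higher in 2, and in set 1 higher in 3 of 4 and equal in 1.

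**Figure D4:**
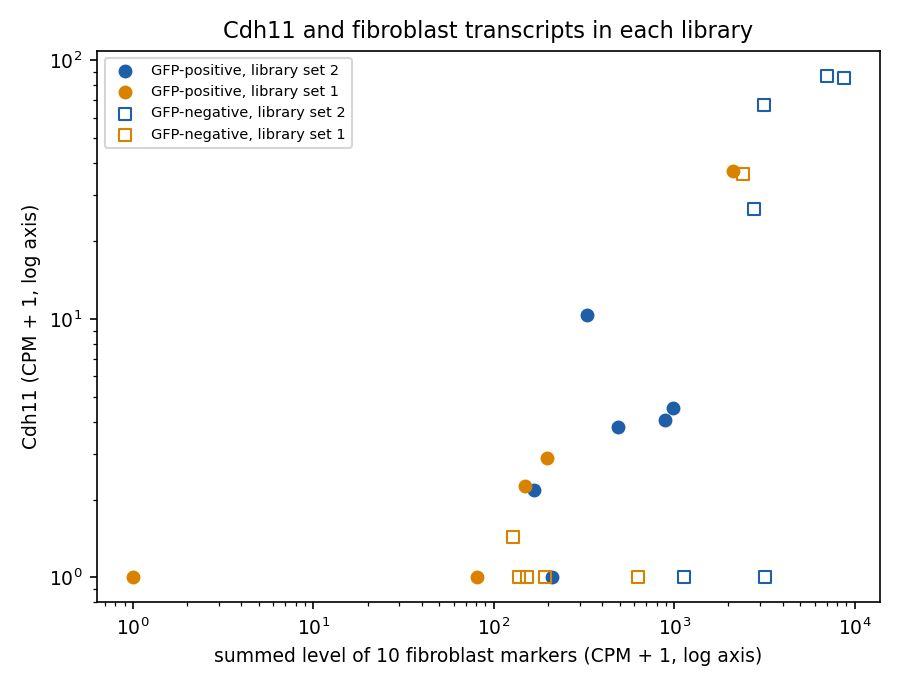
Cdh11 level of each library (y axis, CPM plus 1, log axis) against the summed level of 10 fibroblast markers (x axis, CPM plus 1, log axis), filled circles for GFP-positive and open squares for GFP-negative libraries, coloured by library set. Cdh11 exceeded 10 CPM only in libraries whose fibroblast sum was 2114 CPM or more, namely GFP-positive 1 and 5 GFP-negative libraries. GFP-negative 11, with a fibroblast sum of 3177 CPM, had no Cdh11 count.

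Cdh2 was close to undetected. It had 50 counts over all GFP-positive libraries, 40 of them in GFP-positive 1, and 13 counts over all GFP-negative libraries. 6 libraries of each group had no count. No fold change is given at this depth. None of 7 repressors of E-cadherin transcription associated with epithelial-to-mesenchymal transition passed the count filter over all libraries. Their summed level reached 301 CPM in GFP-positive 3, the library with the macrophage transcripts, and 327 CPM in GFP-negative 1. Zeb2, the most abundant, had a median of 2.14 CPM and at most 276 CPM in GFP-positive libraries, against a median of 18.8 CPM and at most 254 CPM in GFP-negative libraries. Zeb1 averaged 18.2 ± 15.8 CPM in GFP-positive and 10.1 ± 15.05 CPM in GFP-negative libraries (SD). Snai1 averaged 2.28 ± 3.70 CPM in GFP-positive and 3.89 ± 9.93 CPM in GFP-negative libraries (SD). In set 2, where Zeb1 and Zeb2 could be tested, neither passed edgeR. The log2 fold change of Zeb1 was 0.06 (SE 0.85, adjusted p = 0.996) and that of Zeb2 -2.29 (SE 1.14, adjusted p = 0.798).

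Among the catenins, α-catenin had the largest fitted difference. Ctnna1 (chromosome 18, 35118859 to 35254779, plus strand, mm10) lay between 298 and 1196 CPM in GFP-positive libraries, with a median of 727 CPM. It lay between 0 and 769 CPM in GFP-negative libraries, with a median of 557 CPM. 4 of 11 GFP-positive libraries lay above every GFP-negative library, and the lowest of the GFP-positive libraries was again GFP-positive 3. The single 0 was in GFP-negative 5, where 3 counts would be 118 CPM. Fitted over all libraries the log2 fold change came to 0.51 (SE 0.24, 95% interval 0.02 to 1.00), with an unadjusted edgeR p of 0.0411 that did not pass after adjustment over all genes (adjusted p = 0.992).

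In set 2, Ctnna1 was at 578 to 970 CPM in GFP-positive libraries (mean 698 ± 147, SD, n = 6) and at 481 to 637 CPM in GFP-negative libraries (mean 553 ± 53.9, SD, n = 6). 3 GFP-positive libraries lay above all of the GFP-negative ones. The log2 fold change was 0.37 (SE 0.19, edgeR adjusted p = 0.782). In set 1 it was 0.65 (SE 0.52). Within identifiers Ctnna1 was higher in the GFP-positive library in 9 of 10, by 0.45 ± 0.82 on the log2 scale (SD, n = 10), and in 6 of 6 of set 2, by 0.32 ± 0.28 (SD). The exception was the same identifier as for Cdh13, that of GFP-positive 3. The direction was thus shared by 9 of 10 identifiers, and the difference did not pass the test.

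β-Catenin joins E-cadherin to α-catenin and acts in Wnt signalling, and its fitted difference was close to 0. Ctnnb1 (chromosome 9, 120929216 to 120960507, plus strand, mm10) was at 53.9 to 369 CPM in GFP-positive libraries, with a median of 255 CPM, and at 17.3 to 402 CPM in GFP-negative libraries, with a median of 268 CPM. The value of 17.3 CPM is 1 count, in GFP-negative 4. The log2 fold change of Ctnnb1 was 0.00 (SE 0.26, 95% interval -0.53 to 0.53, edgeR adjusted p = 0.999). In set 1 alone the standard error was 0.45, around a value of 0.15. Ctnnb1 was higher in the GFP-positive library of 6 of 10 identifiers. The ratio of Ctnna1 to Ctnnb1 per length was 1.35 to 3.76 in GFP-positive libraries (median 2.69, n = 10) and 1.26 to 3.71 in GFP-negative libraries (median 1.78, n = 9), in libraries of at least 100000 counts. The groups overlapped, with 1 GFP-positive library above all GFP-negative ones. Genes on the opposite strand overlap both catenins, Ulk4 with 92 counts in all libraries beside Ctnnb1 and Lrrtm2 with 18 counts beside Ctnna1, and the strand setting of the counting is not given in the sources used here.

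Plakoglobin and p120-catenin did not pass the test. Jup (chromosome 11, 100368958 to 100397763, minus strand, mm10) averaged 104 ± 38.2 CPM in GFP-positive and 108 ± 50.2 CPM in GFP-negative libraries (SD), a log2 fold change of -0.16 (SE 0.24, edgeR adjusted p = 0.997). It was higher in the GFP-positive library of 4 of 10 identifiers. In libraries of at least 100000 counts Jup averaged 95.4 ± 27.3 CPM in the 10 GFP-positive and 125 ± 42.8 CPM in the 9 GFP-negative libraries (SD). 3 of these GFP-positive libraries lay below every GFP-negative one, and 4 GFP-negative libraries lay above every GFP-positive one. Ctnnd1 (chromosome 2, 84600071 to 84650765, minus strand, mm10) averaged 104 ± 47.7 CPM in GFP-positive and 109 ± 63.1 CPM in GFP-negative libraries (SD), a log2 fold change of 0.01 (SE 0.28, edgeR adjusted p = 0.999). In set 2 the GFP-positive libraries kept Ctnnd1 within 76.9 to 118 CPM, while the GFP-negative ones ran from 28.7 to 255 CPM at lower depth. Ctnnd1 has 24 coding transcripts in the annotation, and the gene-level counts do not tell its isoforms apart.

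**Figure D5:**
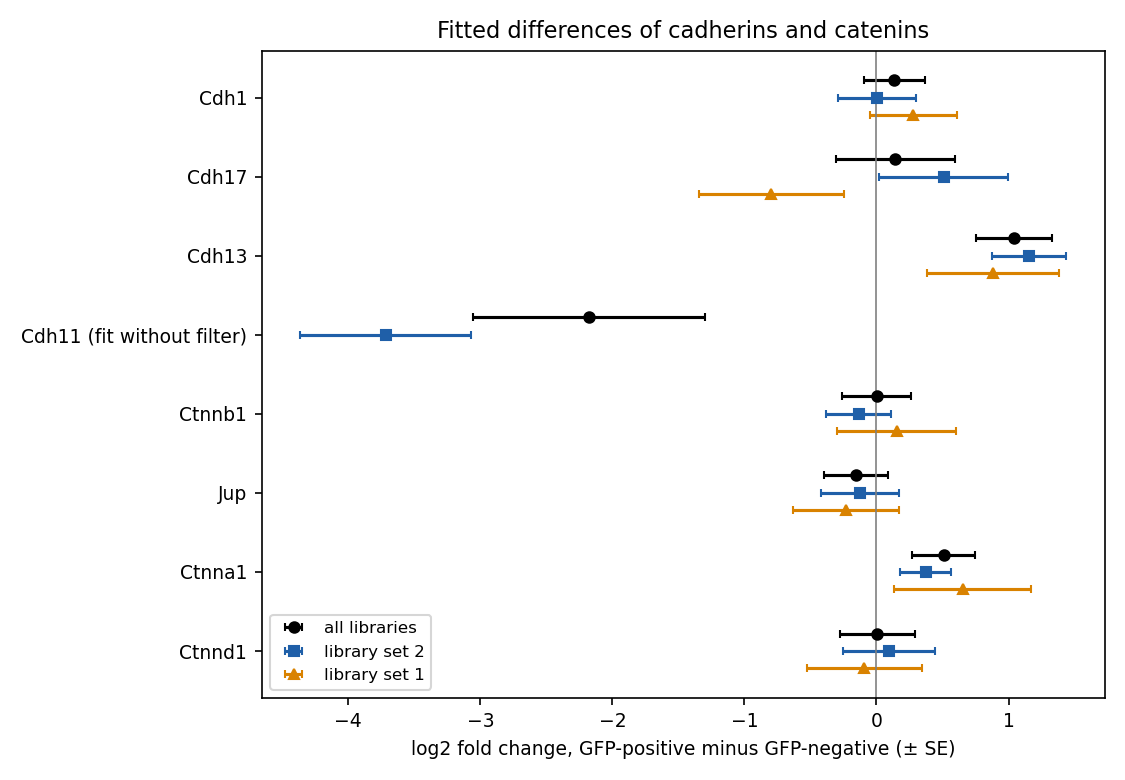
Fitted log2 fold change, GFP-positive minus GFP-negative, with its standard error, for the members with enough counts, over all libraries, in library set 2 and in library set 1. Cdh11 comes from the fit without the filter on low counts and has no value for set 1. Cdh13 lies between 0.88 and 1.16 and Ctnna1 between 0.37 and 0.65, Cdh11 lies at -2.18 and -3.72, and the values of Cdh1, Ctnnb1, Jup and Ctnnd1 lie between -0.23 and 0.28.

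7 of the 9 genes passed the count filter. None of the 6 other than Cdh13 passed over all libraries by edgeR or DESeq2, where 1 of 6621 genes did by edgeR (0.0151%), with 328 at an unadjusted p under 0.05. Of the 6 genes, Ctnna1 had such an unadjusted p. None of the 6 genes other than Cdh13 passed in set 2 either, beside 89 of 6952 genes (1.28%), 3 of them higher (0.0432%) and 86 lower (1.24%). These 3 include Cdh13 itself, from which nothing is read, since the contrast chose it. In set 1 none of 5256 genes passed edgeR (0%), with 284 at an unadjusted p under 0.05 and 6 passing DESeq2. No gene of 6621 passed the edgeR interaction of population with library set (0%), with 424 at an unadjusted p under 0.05 and 4 passing DESeq2. The median log2 fold change over all libraries was 0.13 for the 7 genes and 0.07 for all genes tested. The 7 include Cdh13, chosen by its level here, so nothing is read from their median. The other 6 were at 0.51 (Ctnna1), 0.14 (Cdh17), 0.13 (Cdh1), 0.01 (Ctnnd1), 0.00 (Ctnnb1) and -0.16 (Jup).

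The remaining adhesion genes were followed as lists. Of 28 other cadherins, 3 passed the count filter over all libraries, and none passed the test. Fat1, an atypical cadherin and the most abundant of them, averaged 69.7 ± 29.2 CPM in GFP-positive and 82.4 ± 59.9 CPM in GFP-negative libraries (SD), a log2 fold change of -0.08 (SE 0.31). Of 19 other plaque and nectin genes 11 were tested and none passed, with a median log2 fold change of 0.01 beside 0.07 for all genes. Actn4, an actin cross-linker, was the most abundant, at 0.28 (SE 0.21). Of 10 desmosome genes 7 were tested, 6 with a positive value, and none passed; the median was 0.32. Dsp, the desmosomal linker to keratin, was at -0.17 (SE 0.23), and Dsg2, a desmosomal cadherin, at 0.50 (SE 0.28).

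T-cadherin's known binding partners and processing genes were also looked at. Of 6 genes of its ligands and lipoprotein receptors 3 were tested and none passed. Adipor1, a receptor for adiponectin of another kind, averaged 68.0 ± 19.1 CPM in GFP-positive and 100 ± 33.1 CPM in GFP-negative libraries (SD), a log2 fold change of -0.46 (SE 0.51). Adipoq, which encodes adiponectin, had 49 counts in 1 GFP-positive library and 2 counts in 1 GFP-negative library. Of 10 proteases and secretase parts that cut cadherins, 8 were tested over all libraries and none passed. In set 2 Mmp14, a membrane-bound matrix metalloproteinase, fell in GFP-positive libraries to a log2 fold change of -3.46 (SE 0.56), with an edgeR adjusted p of 0.00157, beside the fibroblast sums given above, whose part in it was not tested. Mmp7, an epithelial metalloproteinase, was at 0.61 over all libraries (SE 0.37) and at 0.93 in set 2 (SE 0.49) and did not pass. Of 12 genes of β-catenin turnover and transcription 9 were tested over all libraries and none passed. Their median log2 fold change was -0.02.

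The markers of other cells were counted in the same fits. Of 10 fibroblast markers, 7 were tested in set 2, all 7 with a negative value (median -2.86), and 3 passed. The log2 fold changes of these 3 were -3.90 for Col1a1 (SE 0.64), -3.71 for Col1a2 (SE 0.58) and -3.004 for Lum (SE 0.47). Of 12 macrophage markers, 9 were tested in set 2, all 9 with a negative value (median -3.66), and 8 passed. Among the 8 were Apoe at -4.12 (SE 0.34), C1qa at -4.57 (SE 0.46) and C1qb at -3.85 (SE 0.52). Of all genes in that fit, 1.24% passed as lower. None of either list passed over all libraries or in set 1. The macrophage markers went the other way in set 1, where 8 were tested, all 8 with a positive value (median 1.67). Over all libraries 6 of 9 macrophage markers were positive (median 0.05). The fibroblast markers were negative in all 4 tested in set 1 (median -0.20) and all 5 tested over all libraries (median -2.35). Of 12 epithelial markers 10 were tested in set 2, each with a positive value, and none passed; their median was 0.36, beside 0.07 for all genes.

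The genes whose levels followed Cdh13 most closely over the 19 libraries of at least 100000 counts, among 3490 well expressed genes, were Pls3 (Spearman rho 0.84), Tnfaip1 (0.79), Urah (0.76), Aldh1a3 (0.75) and Cpe (0.74). Pls3 encodes the actin-bundling protein plastin 3 and Aldh1a3 a retinaldehyde dehydrogenase. For Cdh1 they were Aamp (0.84), Tnfrsf12a (0.81), Cxadr (0.80), Tpm1 (0.78) and Mpzl2 (0.76). Cxadr and Mpzl2 encode adhesion proteins of epithelial junctions. These values are descriptions: the points share the 2 populations, depth and cell mix of the libraries. Cdh11 fell below the filter and has no such list.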

How the data were processed

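The authors deposited expected counts, that is estimated reads of each gene in whole numbers. Salmon 1.3.0 and mm10 are named in the submitters' processing notes, without the annotation or options. TRIzol and a column gave the RNA, and a directional kit with poly(A) selection the libraries, per the labels. CPM values were computed from the deposited counts and library totals. Coordinates and transcript lengths are from GENCODE M21 (mm10). Differences, GFP-positive minus GFP-negative, were fitted with edgeR 4.0.16 in R 4.3.3 over all genes: TMM scaling, filterByExpr, a robust quasi-likelihood fit without covariates and Benjamini-Hochberg adjustment at 0.05, called passing. Each library set was also fitted alone, and the interaction of population with set over all libraries. The fit was tested on simulated data. Alternatives were relative log expression scaling, no count filter, DESeq2 1.42.0, leaving out libraries, and replicate blocks. The fits without the filter for Cdh11 were added after seeing the data.

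The genes and lists were chosen with earlier results of these data known. The rule named all 9 genes, each list's most expressed tested gene and up to 3 passing genes with the smallest p, and the 5 genes most like Cdh13, Cdh1 and Cdh11. Dsg2 over all libraries, Zeb1, Snai1 and Adipoq were named after their values were seen. Since no label assigns the libraries to animals, a p-value reflects the spread of these libraries, which may be technical. Each library was its own unit, and every pair of libraries in a group differed beyond sampling noise. Limits for 0 counts (3 counts per library) and counting errors leave other errors out, since reads had no molecular identifiers.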

Additional observations from a re-analysis of the deposited data

Results flagged for a closer look

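Within each population of each library set, the highest or lowest library was set against the rest of its group for each of the 9 genes, in 36 groups in all. 8 groups had a library far from the others. Chance flags about 1 in 20 groups of normally distributed values. That rate does not hold for Cdh2 and Cdh11, with few or no counts in most libraries, so no excess is read from the number flagged. For Cdh2 these were GFP-positive 1 at 9.44 CPM and GFP-negative 4 at 17.3 CPM in set 1, and GFP-positive 6 at 15.4 CPM and GFP-negative 7 at 7.08 CPM in set 2. The value of GFP-negative 4 is 1 count, and those of GFP-positive 6 and GFP-negative 7 are 5 counts each. For Cdh11 they were GFP-positive 1 at 36.3 CPM and GFP-negative 1 at 35.3 CPM in set 1, which share an identifier. Ctnnd1 was highest at 255 CPM (26 counts) in GFP-negative 11, and Jup lowest at 52.3 CPM (17 counts) in GFP-positive 6.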

How the results depend on the processing

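Over all libraries 1 gene passed, against 24 with DESeq2, 3 with a replicate block by identifier, 2 with a replicate block by title number, and 0 to 16 without 1 library. In set 2, 89 passed, against 375 without a count filter, 142 with DESeq2, 140 with the replicate block by identifier and 65 to 118 without 1 library. In set 1, 0 passed edgeR, 6 DESeq2 and 0 to 6 without 1 library. For the interaction 0 passed, against 1 without a filter, 4 with DESeq2 and 0 to 6 without 1 library. Of the 9 genes, Cdh11 passed in set 2 in the fits without a filter; the other gene counted is Cdh13, from whose calls nothing is read, since it was chosen by its level here. With Cdh13 the count in set 2 was 1, against 2 without a filter, 0 without the libraries under 100000 counts and 0 to 1 without 1 library; over all libraries it was 0, and 0 to 1 without 1 library, and without a filter 1 with either block or DESeq2. The libraries of an identifier deviated together, with a correlation above 0.1, in 6 of 12 pairs (median 0.10). Those of a title number did so in 3 of 11 (median -0.02). Such correlations cannot decide whether libraries are paired, and the main fits used no block. The replicate blocks changed no call among the members other than Cdh13. Relative log expression moved the median interaction value of all genes to -0.16, against -0.01.

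Changes of sign touched no value that passed, and their cause was not tested. Not all were close to 0. Without shallow libraries Ctnnd1 was at 0.28 in set 1, against -0.09 in the main fit. In the interaction it was at -0.27 without them, against 0.13. Over all libraries Cdh17 was at -0.089 and -0.048 with the blocks by identifier and title number and -0.055 with the set as a covariate (-0.20 to 0.28 without 1 library). Ctnnb1 was at -0.050 with relative log expression, -0.056 with DESeq2, -0.034 without shallow libraries and -0.039 with the identifier block (-0.094 to 0.096 without 1 library). Ctnnd1 was at -0.079 with relative log expression, -0.052 with DESeq2 and -0.038 with the title block (-0.087 to 0.15). In set 2, Cdh1 was at -0.073 with relative log expression, -0.073 with DESeq2, -0.071 with the identifier block and -0.043 without shallow libraries (-0.13 to 0.21). In set 2 without a filter Ctnnb1 was at 0.016 and Jup at 0.025 (-0.18 to 0.013), and without shallow libraries Ctnnd1 was at -0.016 (-0.016 to 0.48). In set 1, Ctnnd1 was at 0.047 without a filter and 0.28 without shallow libraries (-0.28 to 0.13), Ctnnb1 at -0.018 to 0.44 and Jup at -0.36 to 0.086 without 1 library. In the interaction, Ctnnd1 was at -0.011 with DESeq2 and -0.27 without shallow libraries (-0.065 to 0.51), and Jup at -0.099 with relative log expression, -0.031 with DESeq2 and -0.090 with the identifier block (-0.20 to 0.22). Cdh11 stayed negative in every fit for which a value is given. None is given for set 1, where Cdh11 was higher in the GFP-positive library in 3 of 4 identifiers and equal in 1. A constant sign over both sets is therefore not claimed for Cdh11. Cdh13 stayed positive, from which nothing is read, since it was chosen by its level here. The lowest depths, 25458 and 37125 counts, limit what can be seen of Cdh2, Cdh11 and Cdh17.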
